A study of Mus musculus with 4 samples.

Results

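Group 2 innate lymphoid cells (ILC2) were picked from CD45+ hematopoietic cells of the mouse dura mater and brain by their transcripts, and 229 of 14586 filtered cells met the rule. A member had more than 1000 and fewer than 6000 detected genes, at most 7% mitochondrial UMIs, a transcript of the transcription factor gene *Gata3* and transcripts of at least 2 of 6 genes, *Il1rl1*, *Rora*, *Il7r*, *Areg*, *Il5* and *Il13*. It had no transcript of 6 genes of other cells, *Cd3e*, *Cd3g*, *Ncr1*, *Cd79a*, *Cpa3* and *Trdc*, and a value of the microglia and macrophage gene *C1qa* under 1.5 on the deposited natural log scale. The cells came from 8-week-old C57BL/6J mice on day 3 after photothrombotic injury (PTI, D3), a light-induced clotting of vessels under the skull, or from controls taken as the sham-operated S3 group. CD45+ cells were sorted by FACS, and their 3′ RNA ends were sequenced on the 10x Chromium platform, which marks every molecule with a unique molecular identifier (UMI). There were 4 libraries, brain S3, dura mater S3, brain D3 and dura mater D3, with 1 library for each condition, and the study's text gives no number of mice for any of them. No difference could therefore be set against the spread between mice, no test was made, and every interval given is an exact 95% interval that covers counting error only.

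ILC2 are lymphocytes without a rearranged antigen receptor that live in barrier tissues and respond to alarm signals of damaged cells. Interleukin 33, sensed through the receptor that *Il1rl1* encodes, and interleukin 7, sensed through *Il7r*, keep and activate them, and *Gata3* and *Rora* set their identity. Activated ILC2 release the type 2 cytokines interleukin 5 and interleukin 13 and the growth factor amphiregulin, encoded by *Areg*, and in the meninges they are known to lie along the dural sinuses.

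The members held 512858 UMIs in dura mater S3 and 738769 in dura mater D3, against 399164 in brain S3 and 128534 in brain D3. The median depth per member was 7024.5 UMIs in dura mater S3 and 7191 in dura mater D3, against 7266 in brain S3 and 5342.5 in brain D3, and no member shared its barcode with a cell of another library. Levels are a gene's UMIs per 1000000 UMIs summed over the members of a library (CPM). Because *Gata3* and the other genes of the rule chose the cells, their levels are a description. *Gata3* stood at 1213 CPM in dura mater S3 and 1366 in dura mater D3, against 1355 in brain S3 and 1120 in brain D3. Where 4 values follow each other without names they run from brain S3 over dura mater S3 and brain D3 to dura mater D3. *Rora*, a nuclear receptor of the lineage, had UMIs in 50 of 52, 66 of 66, 18 of 18 and 91 of 93 members, and *Il7r* in 52, 66, 18 and 91. *Il1rl1* was detected in 45, 63, 11 and 90 members, at 631, 821, 436 and 807 CPM. The level of *Gata3* and the detection of *Rora* and *Il7r* thus lay close together in the 4 libraries, whereas *Il1rl1* was lowest in brain D3. The *Il1rl1* interval of brain D3, 329 to 566 CPM, lay below that of dura mater S3, 744 to 903 CPM. *Il1rl1* is not limited to ILC2, since mast cells of the dura mater, gated on their own markers, carried it at 847 CPM at S3 and 1172 CPM at D3.

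By the number of marker genes most members lay well inside the rule. Of the 6 marker genes 14 members had 2, 46 had 3, 118 had 4, 43 had 5 and 8 had all. In 16 members *Gata3* rested on 1 UMI. *C1qa* was seen in 54 members, at a value of up to 1.499 in dura mater S3, close to the limit of 1.5. Just outside the rule were 6 cells with *Gata3* and 1 marker gene, 48 that met all but the *C1qa* limit and 334 that met all but the absence of the 6 genes of other cells, 39 of them through *Cd3g* alone and 28 through the mast cell gene *Cpa3* alone. The rule left the T cell receptor constant genes free. *Trbc1* or *Trbc2*, the constant parts of the beta chain, were seen in 204 of 229 members, whereas *Cd3d* or *Trac*, which encode a CD3 chain and the alpha chain constant part, were seen in 13. *Trbc1* was at 338, 394, 265 and 252 CPM in the members of brain S3, dura mater S3, brain D3 and dura mater D3, below NK/ILC1 gated cells of the same libraries at 479, 548, 519 and 523 CPM and below alpha-beta T gated cells at 929, 733, 592 and 667 CPM. *Trbc2*, with more UMIs than *Trbc1* in the members of every library, was at 481, 409, 280 and 421 CPM, above NK/ILC1 gated cells at 315, 205, 226 and 129 CPM and below alpha-beta T gated cells at 1593, 1650, 1196 and 1517 CPM. The beta chain genes thus went in opposite directions against NK/ILC1 cells, and in dura mater D3 the log2 ratio was 1.71 (1.16 to 2.31) for *Trbc2* and -1.06 (-1.40 to -0.71) for *Trbc1*. In dura mater S3 and brain S3 neither gene was at least 2-fold apart with an interval off 0. *Trac* gave 3, 1, 1 and 5 UMIs in all. Requiring *Cd3d*, *Trac*, *Trbc1* and *Trbc2* at 0 as well would leave 25 of the 229 cells. *Tcrg-C1*, a gamma chain constant gene, was at 230, 142, 156 and 138 CPM in the members.

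**Figure D1:**
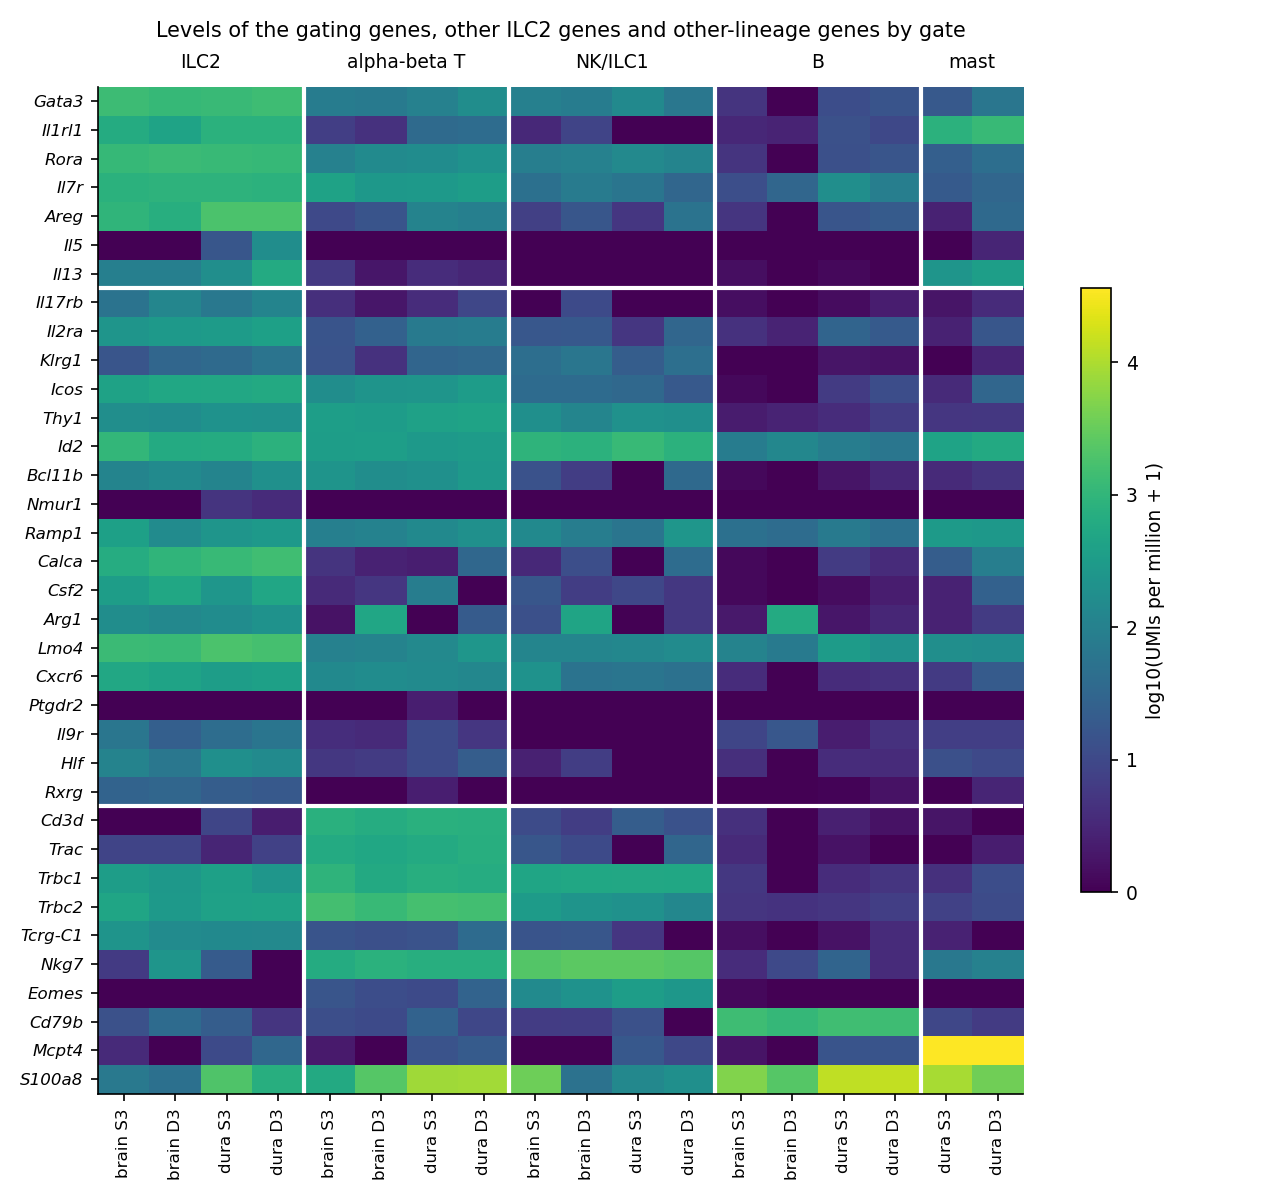
Heat map of levels in log10 (CPM + 1) for the gating genes, for ILC2 genes that the rule did not use and for genes of other lineages, in ILC2, alpha-beta T, NK/ILC1 and B gated cells of each library and in mast gated cells of the dura mater. The ILC2 columns carry Gata3, Il1rl1, Calca and Arg1, and Cd3d, Trac, Eomes, Cd79b and Mcpt4 are low there. Trbc1, Trbc2 and Tcrg-C1 are not low in the ILC2 columns, nor is S100a8 in those of the dura mater or Nkg7 in that of brain D3.

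The label was set beside 18 genes that are known from ILC2 and were not used to choose the cells. With a gene called higher or lower when its ratio was at least 2-fold, its interval left out a log2 ratio of 0 and both groups together had at least 30 UMIs, members of dura mater S3 were compared with alpha-beta T cells of the same library, where 361 of 4933 genes (7.32%) were called higher and 440 (8.92%) lower. Of the 18 genes 14 had enough UMIs, 10 were higher in ILC2 and 0 were lower, with a median log2 ratio of 1.38 beside a median of -0.11 over all genes. In dura mater D3 10 of 15 were higher and 1 lower, with 7.79% of all genes higher and 9.41% lower, and in brain S3 12 of 15 were higher and 0 lower, with 7.56% of all genes higher and 7.74% lower. Against NK/ILC1 cells of dura mater S3, where 10.2% of 3448 genes were higher and 11.6% lower, 11 of 13 were higher and 0 lower, and the median log2 ratio was 3.71. In dura mater D3, with 20.1% of all genes called, 9.69% higher and 10.4% lower, 11 of 15 were higher and 0 lower, and in brain S3, with 19.6% called and 5.53% higher, 10 of 13 were higher and 1, *Klrg1*, was lower. These values go with the label in dura mater S3, dura mater D3 and brain S3. Members of brain D3 were not compared with T or NK/ILC1 cells, so the values do not cover the label there. The list of 18 genes, like the members, was chosen with earlier results of these data known, so the values are no independent check. Some textbook genes of ILC2 were nevertheless scarce. *Ptgdr2*, the prostaglandin D2 receptor CRTH2, had 0 UMIs in every library, which allows up to 4.06 CPM in dura mater D3 at the floor of 3 counts used for all zeros, and *Nmur1*, the neuromedin U receptor, had 0, 2, 0 and 2 UMIs. *Klrg1*, an inhibitory receptor, had 6, 19, 4 and 41.

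Many genes outside the rule were far higher in ILC2 than in T cells of dura mater S3. *Calca*, which encodes the neuropeptide CGRP, had 606 UMIs in 41 members and 1 UMI in the 72 T cells (log2 ratio 9.73, 95% interval 7.25 to 15.04). *Ccl1*, a chemokine, had 193 UMIs against 1 (8.08, 5.59 to 13.39), and *Hes1*, a transcription factor downstream of Notch, 169 against 1 (7.89, 5.39 to 13.20). *Rnf128*, a ubiquitin ligase, followed with 126 UMIs against 1 (7.47, 4.96 to 12.78), *Rab27b*, a factor of vesicle release, with 83 against 1 (6.87, 4.35 to 12.19) and *Kit*, the stem cell factor receptor, with 51 against 1 (6.16, 3.62 to 11.49). The upper bounds are wide because the T cells held 1 UMI of each. *Hs3st1*, an enzyme that modifies heparan sulfate, had 228 UMIs in ILC2 and 0 in T cells, and the arginase gene *Arg1* 84 and 0. Against NK/ILC1 cells *Calca* had 606 UMIs to 0, the interleukin 2 receptor gene *Il2ra* 164 to 1 (6.26, 3.76 to 11.57), *Ly6a* 191 to 1 (6.48, 3.98 to 11.79), and *Ltb4r1*, the leukotriene B4 receptor, 136 to 1 (5.99, 3.48 to 11.30). The cytokine gene *Csf2*, which encodes GM-CSF, had 128 UMIs to 2 (4.90, 3.02 to 7.96).

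Of 22 receptor genes for nerve, lipid and hormone signals 11 could be compared with T cells of dura mater S3, and 7 were higher in ILC2, *Ramp3*, *Ptgir*, *Cysltr1* and *Ltb4r1* among them, with 0 lower and a median log2 ratio of 1.70. Over all genes 7.32% were higher in this comparison and 8.92% lower. Against NK/ILC1 cells, with 10.2% of all genes higher and 11.6% lower, 9 of 9 were higher (median 3.04 beside -0.18 for all genes). *Ramp3*, which pairs with the calcitonin receptor-like receptor, had 168 UMIs in ILC2 of dura mater S3 and 0 in NK/ILC1 cells. Of 18 migration genes 2 were higher and 7 lower than in T cells (median -0.83). Of the 9 genes of the T cell marker list, which holds neither *Cd3e* nor *Cd3g*, 8 could be compared with T cells and 7 were lower in ILC2. The T cells were gated on *Cd3e* with *Trac*, *Trbc1* or *Trbc2*, so this count is in part fixed by how the cells were chosen.

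ILC2 made up a larger share of CD45+ cells in the dura mater at D3 than at S3, and a smaller share in the brain. They were 66 of 3569 filtered cells in dura mater S3, 1.85% (Clopper-Pearson interval 1.43 to 2.35), and 93 of 2668 in dura mater D3, 3.49% (2.82 to 4.25). In the brain they were 52 of 3748 at S3, 1.39% (1.04 to 1.82), and 18 of 4601 at D3, 0.391% (0.232 to 0.618). The intervals of S3 and D3 did not overlap in either tissue. With *Cd3d*, *Trac*, *Trbc1* and *Trbc2* also required at 0 the dura mater was at 0.224% (8 cells) for S3 and 0.337% (9 cells) for D3. The brain was then at 0.0800% (3 cells) for S3 and 0.109% (5 cells) for D3, no longer lower at D3. These cells are too few for a direction to be read in either tissue. Other lymphocytes of the brain were also a smaller share at D3: alpha-beta T cells were 13.8% at S3 and 2.70% at D3, and NK/ILC1 cells 4.06% and 1.56%. In the dura mater T cells were 2.02% and 2.14%, NK/ILC1 cells 0.813% and 1.09%, and B cells 23.0% and 6.33%. Set against ILC2, T and NK/ILC1 cells alone, ILC2 were 39.5% of 167 cells in dura mater S3 (32.1 to 47.4) and 52.0% of 179 in dura mater D3 (44.4 to 59.5). The same share in the brain was 7.21% of 721 cells at S3 (5.43 to 9.35) and 8.41% of 214 at D3 (5.06 to 13.0). On this scale the S3 and D3 intervals overlapped in both tissues, and the dural shares stayed above those of the brain. A share of sorted cells does not count cells in the tissue, so more ILC2 and fewer cells of other kinds cannot be told apart.

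**Figure D2:**
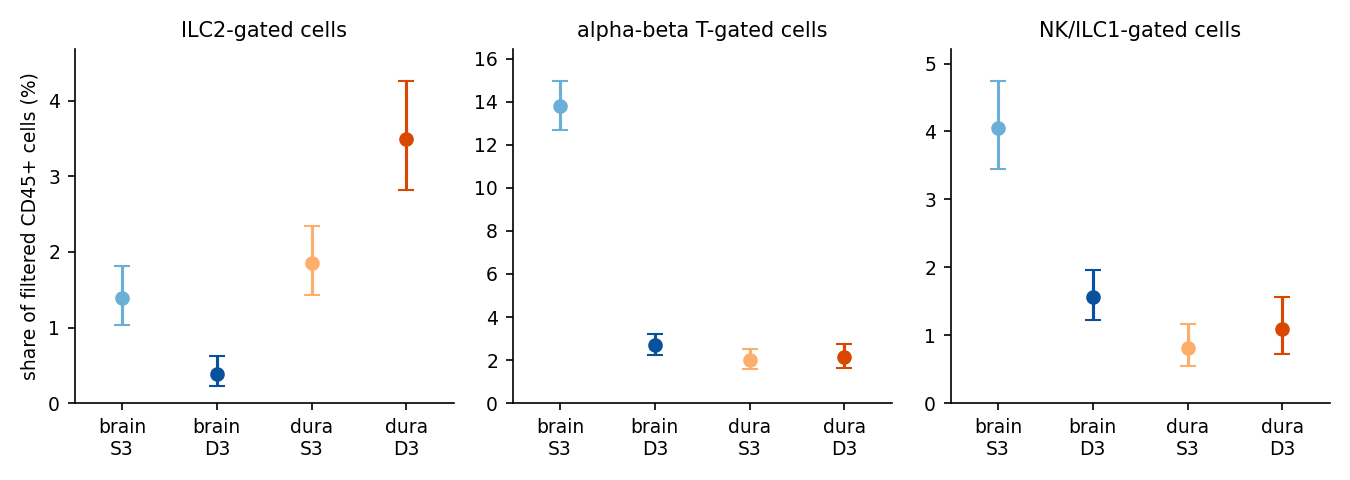
Shares of filtered CD45+ cells that met the ILC2, alpha-beta T and NK/ILC1 rules in each of the 4 libraries, in percent, with Clopper-Pearson 95% intervals as bars. ILC2 are highest in dura mater D3 at 3.49% and lowest in brain D3 at 0.391%, while T cells are highest in brain S3 at 13.8%.

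Interleukin 5 and interleukin 13 transcripts were higher in ILC2 of the injured than of the sham dura mater, while amphiregulin transcripts were not. *Il5*, on chromosome 11 (GRCm38, chr11:53720794-53725106, plus strand), and *Il13*, on the same chromosome (chr11:53631324-53634702, minus strand), belong to the type 2 cytokine cluster. *Areg* is on chromosome 5 (chr5:91139599-91148432, plus strand). Their 250 bases before the RefSeq start of the gene, read 5′ to 3′ on the gene's strand from RefSeq on GRCm38.p6, are shown because GATA3 binds GATA motifs and these genes set the dural cells apart. The windows are chr11:53720544-53720793 for *Il5*, chr11:53634703-53634952 for *Il13* and chr5:91139349-91139598 for *Areg*, and capitals mark a match on either strand to AGATAA and its variant AGATAG, or to TGATAA and its variant TGATAG.
Il5: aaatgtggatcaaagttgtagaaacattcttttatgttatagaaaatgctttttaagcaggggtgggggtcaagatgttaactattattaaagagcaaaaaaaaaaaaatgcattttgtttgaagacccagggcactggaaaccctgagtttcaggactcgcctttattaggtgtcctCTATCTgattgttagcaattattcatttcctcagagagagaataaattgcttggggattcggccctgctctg
Il13: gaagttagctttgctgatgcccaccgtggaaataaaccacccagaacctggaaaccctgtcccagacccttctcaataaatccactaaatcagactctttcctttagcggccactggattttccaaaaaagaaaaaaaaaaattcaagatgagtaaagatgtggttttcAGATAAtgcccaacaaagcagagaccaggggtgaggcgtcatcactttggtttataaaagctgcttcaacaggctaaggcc
Areg: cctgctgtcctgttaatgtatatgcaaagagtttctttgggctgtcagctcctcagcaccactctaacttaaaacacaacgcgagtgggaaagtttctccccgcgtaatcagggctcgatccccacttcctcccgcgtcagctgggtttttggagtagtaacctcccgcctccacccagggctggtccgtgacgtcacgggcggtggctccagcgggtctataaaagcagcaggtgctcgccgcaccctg
*Il5* had 1 match, which begins 72 bases before the start, *Il13* had 1, which begins 81 bases before it, and *Areg* had 0. *Csf2* and *Calca*, which were not called in the dura mater at D3 over S3, also had 1 match each, which begins 247 and 218 bases before the start. Of 32851 promoter windows of this length 8718 (26.5%) held at least 1 match, so a match is common and is only a description of the sequence.

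*Il5* was absent from the brain members, with 0 UMIs in 52 cells at S3 and 0 in 18 cells at D3, which allows up to 7.52 and 23.3 CPM at the floor of 3 counts. In the dura mater it had 8 UMIs in 5 of 66 members at S3, 15.6 CPM (6.73 to 30.7), and 127 UMIs in 15 of 93 members at D3, 172 CPM (143 to 205). The dural intervals of the level, which treat UMIs as independent, did not overlap, and the log2 ratio of D3 over S3 was 3.46 (2.44 to 4.70). The exact intervals of the shares of members with a UMI, 5 of 66 and 15 of 93, did overlap. In dura mater D3 the UMIs were unevenly spread, with 67 of 127 in 1 cell and 26 in another, and 6 of the 15 cells had 1 UMI each. With every member given equal weight the log2 ratio was 2.05, and with all members thinned to 2000 UMIs it was 0.96. No T, NK/ILC1 or B gated cell of any library had an *Il5* UMI, and mast cells of dura mater D3 had 3.

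*Il13* was detected in all 4 libraries. It had 37 UMIs in 6 members of brain S3, 92.7 CPM (65.3 to 128), and 12 UMIs in 2 members of brain D3, 93.4 CPM (48.2 to 163). In the dura mater it had 90 UMIs in 16 members at S3, 175 CPM (141 to 216), and 450 UMIs in 26 members at D3, 609 CPM (554 to 668). Dura mater D3 was thus higher than dura mater S3 by 3.47-fold (log2 ratio 1.80, 1.47 to 2.14) and higher than brain D3 by 6.52-fold (2.71, 1.89 to 3.67), while the brain libraries were alike in level (0.01, -1.06 to 0.98). The shares of members with a UMI, 16 of 66 and 26 of 93, had intervals of 14.5% to 36.4% and 19.1% to 38.2% that overlapped. The amount per positive cell differed more, since members with at least 10 *Il13* UMIs numbered 3 in dura mater S3, holding 60 UMIs, and 11 in dura mater D3, holding 396. The dural log2 ratio was 2.21 without the highest cell of each library, 1.59 without the mixed cells described below and 2.74 after thinning. It was 4.17 with the T cell receptor genes also at 0, on 114 UMIs of 8 members at S3 and 9 at D3. T cells carried at most 4.74 CPM and NK/ILC1 cells 0 UMIs of *Il13*, but mast cells of the dura mater carried 236 CPM at S3 and 365 CPM at D3, so ILC2 were not the only cells with this transcript.

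**Figure D3:**
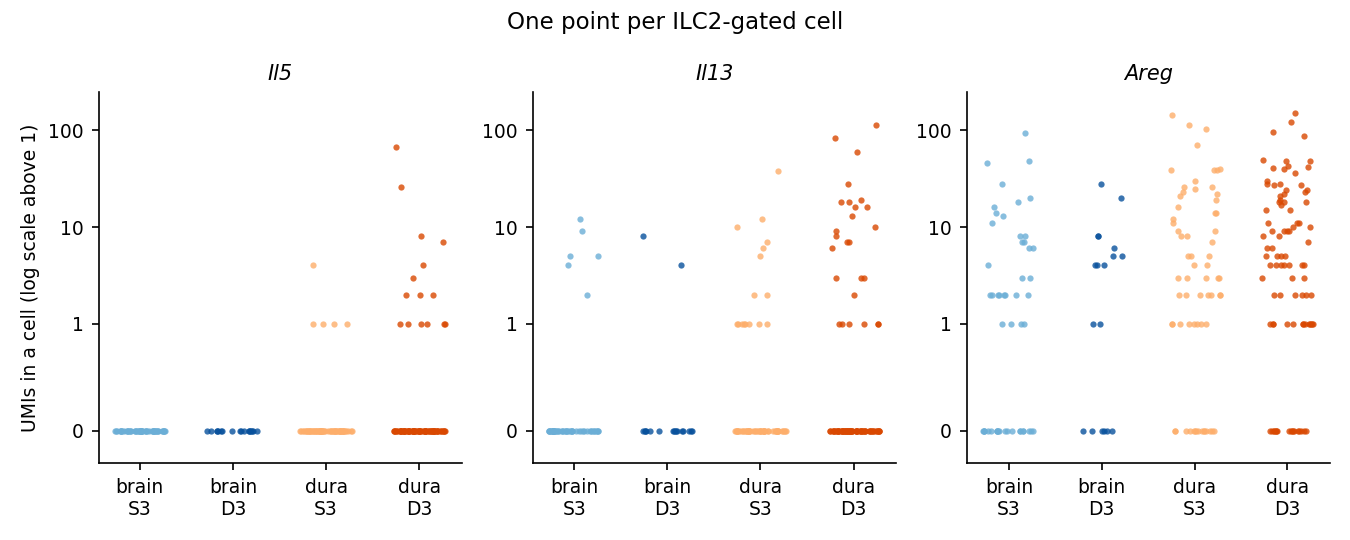
UMIs of Il5, Il13 and Areg in each member by library, 1 point a cell, on an axis that is logarithmic above 1 UMI. The cells above 10 UMIs of Il13 are mostly in dura mater D3, with 1 cell at 115 UMIs, whereas Areg spans the same range in both dural libraries.

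*Areg* was the most widely detected of these products. It had UMIs in 51 of 66 members of dura mater S3, 76 of 93 of dura mater D3, 31 of 52 of brain S3 and 12 of 18 of brain D3. Its level was 1854 CPM (1738 to 1976) in dura mater S3 and 1873 (1776 to 1975) in dura mater D3, against 952 (859 to 1053) in brain S3 and 731 (591 to 895) in brain D3. The dural libraries were within each other's intervals (log2 ratio 0.01, -0.11 to 0.14), and both were above the brain libraries. At D3 the dura mater was 2.56-fold higher than the brain (log2 ratio 1.36, 1.05 to 1.67), and at S3 1.95-fold, just under the 2-fold threshold. Alpha-beta T cells carried *Areg* at 9.03, 107, 14.5 and 91.1 CPM in brain S3, dura mater S3, brain D3 and dura mater D3. *Il5*, *Il13* and *Areg* counted toward the rule, but a rule without them, asking for at least 2 of *Il1rl1*, *Rora* and *Il7r*, kept 51, 66, 18 and 93 of these cells, so nearly the same cells were chosen without these genes.

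*Csf2* and *Calca*, which the rule did not use, were high in all 4 libraries. *Csf2* was at 250 CPM (208 to 297) in dura mater S3 and 494 (445 to 547) in dura mater D3, against 351 (295 to 414) in brain S3 and 521 (404 to 662) in brain D3. The dural D3 to S3 ratio of *Csf2* was 1.98-fold (log2 ratio 0.99, 0.69 to 1.29) and fell short of the 2-fold threshold. *Calca* was at 1182 CPM (1089 to 1280) in dura mater S3 and 1451 (1365 to 1541) in dura mater D3, against 659 (582 to 743) in brain S3 and 949 (788 to 1133) in brain D3. Its log2 ratio of D3 over S3 was 0.30 (0.15 to 0.44) in the dura mater and 0.53 (0.20 to 0.84) in the brain, both under 2-fold. *Calca* UMIs were in 78 of 93 members of dura mater D3 at a median depth of 7191 UMIs but in 3 of 169 B cells of the same library at a median depth of 5494. The part of free RNA in these counts was not tested. *Il4*, the third type 2 cytokine, had 24, 19, 2 and 51 UMIs in brain S3, dura mater S3, brain D3 and dura mater D3, and its dural ratio of 0.90 (0.11 to 1.74) was under 2-fold.

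**Figure D4:**
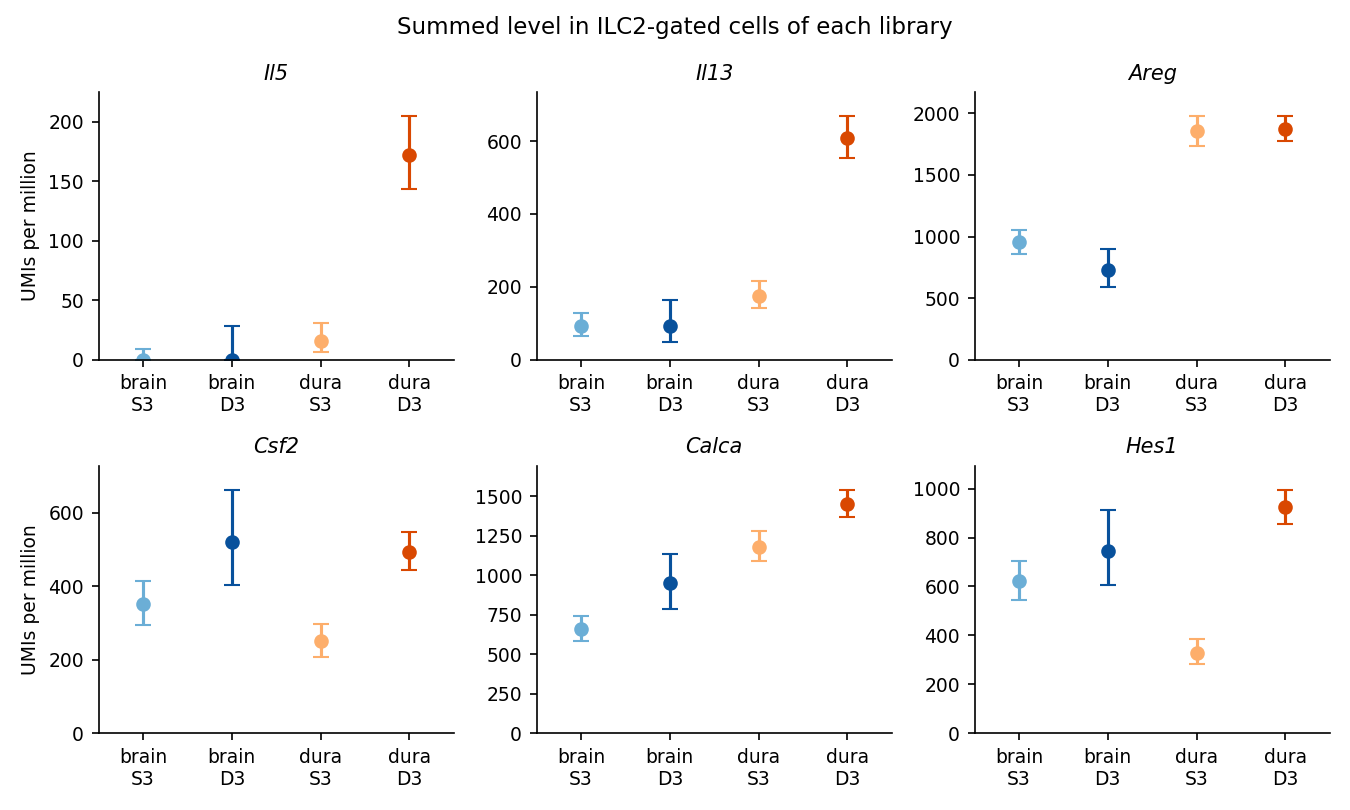
Levels of Il5, Il13, Areg, Csf2, Calca and Hes1 in ILC2 of the 4 libraries in CPM, with exact Poisson 95% intervals as bars. Il5, Il13 and Hes1 stand highest in dura mater D3, Areg is high in both dural libraries, and Csf2 differs least between dura mater D3 and brain D3.

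The products were shared unevenly among cells. Of the 4 genes *Il13*, *Areg*, *Csf2* and *Calca*, 11 of 93 members of dura mater D3 had all, 5 had none and 28 had *Areg* and *Calca* alone. In dura mater S3 4 of 66 had all, 9 had none and 22 had *Areg* and *Calca* alone. *Il5* and *Il13* met in 7 of the 15 *Il5* positive cells of dura mater D3 and in 1 of 5 of dura mater S3. When dura mater D3 members with *Il13* (26 cells) were set beside those without (67 cells), *Il5* had 108 UMIs against 19 (log2 ratio of CPM 3.47, 2.76 to 4.26) and *Csf2* 183 against 182 (0.97, 0.67 to 1.27), whereas *Areg* differed by -0.17 (-0.34 to -0.0025). Of the 108 *Il5* UMIs 67 were in 1 cell and 26 in another, and the first of these cells also held 73 of the 183 *Csf2* UMIs. The median depth was 8014.5 UMIs with *Il13* and 7008 without. In dura mater S3 the 16 members with *Il13* were higher than the other 50 in both *Csf2* (2.42, 1.88 to 2.99) and *Areg* (1.78, 1.59 to 1.97). These genes were chosen after their values were seen, and cells of 1 library are not replicates. A single member of dura mater D3 with 50353 UMIs held 67 *Il5*, 115 *Il13*, 73 *Csf2* and 150 *Areg* UMIs.

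Over all genes, dura mater D3 members were called higher than dura mater S3 members for 100 of 4762 genes (2.1%) and lower for 112 (2.35%), 4.45% in all. Part of these calls moved with a few cells that carried the markers of another lineage. Of the 229 members 9 had at least 0.5% of their UMIs from a list of markers of other cells, 6 in dura mater S3, 2 in dura mater D3 and 1 in brain D3, and they are called mixed cells. Of the summed neutrophil markers, *S100a8* among them, 3 members of dura mater S3 and 1 of dura mater D3 were over this limit, with up to 14.4% and 11.4% of a cell's UMIs, and 4 members of dura mater S3 were over it for macrophage markers. A mixed cell of dura mater D3 held 656 of the library's 744 UMIs of *Cd74*, the invariant chain of MHC class II. Without the mixed cells 111 genes were higher and 36 lower of 4365, and 92 of the calls were those made with all members.

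The MHC class II genes were among the genes furthest above sham in dura mater D3 when every member was kept, and moved close to 0 when the mixed cells were left out. *H2-Ab1*, which encodes a class II beta chain, had 313 UMIs at D3 and 25 at S3, a log2 ratio of 3.12 (2.53 to 3.77), and 0.57 without the mixed cells. *H2-Eb1*, with 284 and 23 UMIs, was at 0.11 without them, *H2-Aa* went from 2.96 to 0.63 and *Cd74* from 2.18 to 0.03. Genes of neutrophils and monocytes formed the lower end, and there the mixed cells were those of dura mater S3. *Lyz2*, which encodes lysozyme, had 162 UMIs at D3 and 1052 at S3 (-3.23), and its ratio was 0.35 without the mixed cells. *Chil3* went from -3.51 to 0.15, *Retnlg* from -2.05 to 0.51, *Ccl6* from -1.99 to -0.24, *Lst1* from -2.90 to -0.47 and *Thbs1* from -3.46 to -0.92.

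Other genes were still at least 2-fold apart without the mixed cells, though for some the call was lost. *Hes1* was at 330 CPM (282 to 383) in dura mater S3 and 923 (855 to 995) in dura mater D3, against 621 (546 to 704) in brain S3 and 747 (605 to 912) in brain D3. It was thus lowest in the sham dura mater, and its dural D3 to S3 log2 ratio was 1.49 (1.24 to 1.74), or 1.32 without the mixed cells. With the T cell receptor genes also at 0 it was 0.82, on 91 UMIs, which is under 2-fold. UMIs of *Hes1* were in 35 of 66 members of dura mater S3 and 75 of 93 of dura mater D3. *Bcl2l11*, which encodes the cell death inducer BIM, had 66 UMIs at D3 and 10 at S3 (2.20, 1.23 to 3.32, and 1.99 without). *Tnfsf9*, the ligand of the costimulatory receptor 4-1BB, had 39 and 6 UMIs (2.17, and 2.92 without). *Mcm5*, a part of the helicase that opens DNA for replication, had 35 and 4 (2.60, and 2.40 without), and *Smc2*, a condensin subunit, 27 and 4 (2.23, and 2.03 without). *Mrpl17*, a mitochondrial ribosomal protein gene, had 27 and 3 (2.64, 0.94 to 5.01), and *Ecm1*, a secreted matrix protein gene, 28 and 4 (2.28). Among the lower genes *Arid3a*, a DNA-binding factor gene, had 6 UMIs at D3 and 25 at S3 (-2.59, and -2.47 without), *Dnajc24* 9 and 25 (-2.08 without), *Atl2* 10 and 25 (-1.85, and -1.99 without) and *Myo1f* 7 and 25 (-2.36, and -1.73 without). Without the mixed cells *Myo1f* was no longer called, with 4 and 8 UMIs and an interval of -3.91 to 0.17, and *Tnfsf9* (25 and 2 UMIs), *Mrpl17* (26 and 2) and *Arid3a* (6 and 20) fell under the minimum of 30 UMIs. Apart from *Hes1* and *Bcl2l11* each of these rests on few UMIs.

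**Figure D5:**
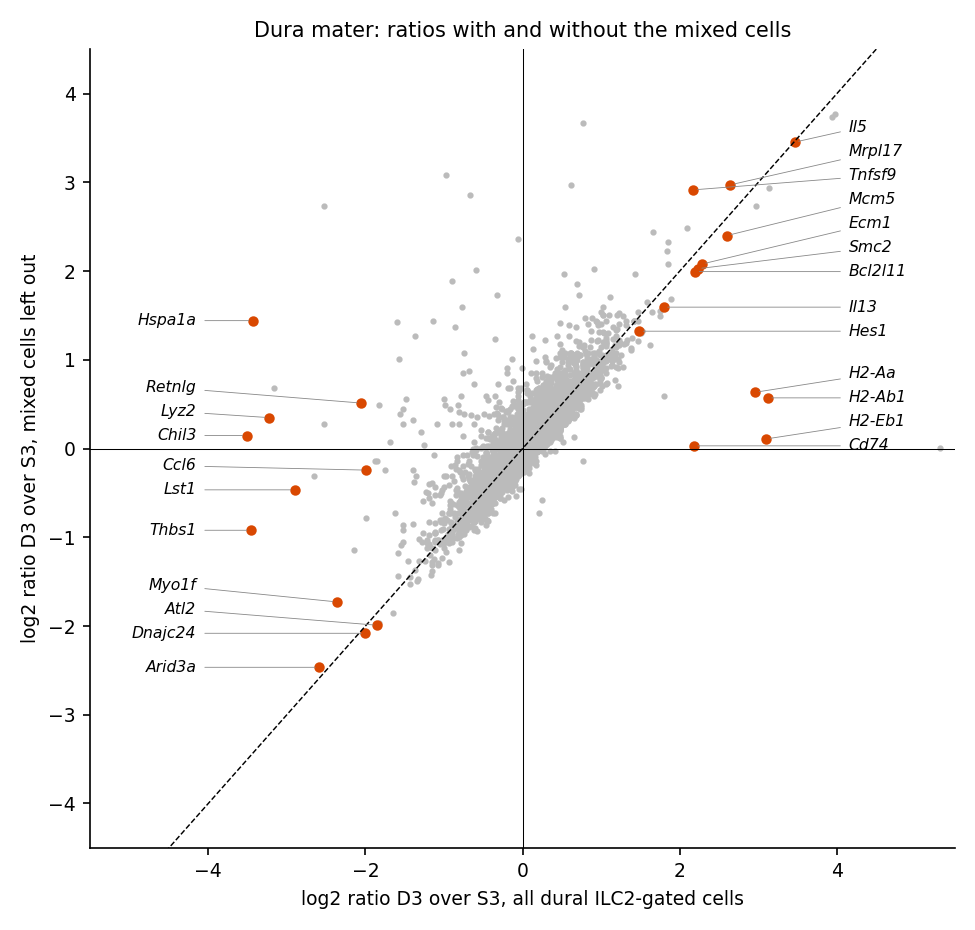
Log2 ratios of D3 over S3 in dural ILC2 for each gene, with all members on the horizontal axis and with the mixed cells left out on the vertical axis. The dashed line marks equal values. Il5, Il13 and Hes1 lie near the line, whereas the MHC class II genes and the genes of neutrophils and monocytes fall toward 0 on the vertical axis.

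By list, the dural D3 to S3 differences were few, and they are read beside the 2.1% of all genes that were higher and the 2.35% that were lower, against which a single call in a list is near the background. Of 30 genes of effector products 15 had enough UMIs, 3 were higher, *Il5*, *Il13* and *Cxcl3*, and 1 was lower, *Tnf*, at -1.06. *Il5* and *Il13* counted toward the rule, so this count is not independent of how the cells were chosen. The *Cxcl3* UMIs, 66 in number, all lay in 1 cell. None of 20 cytokine receptor genes was called in either direction, with a median log2 ratio of -0.02, and none of 12 receptor genes for neuropeptides, lipids and hormones, although *Ramp3* stood at 512 CPM at D3 and 328 at S3 (0.64, 0.38 to 0.91). Of 18 lineage transcription factor genes only *Nfil3*, a factor needed for innate lymphoid development, was called (1.18 higher). Of 16 surface and costimulatory genes *Icosl*, the ligand of ICOS, and *Nt5e*, the ectoenzyme CD73, were higher at 1.84 and 1.15, and of 16 migration genes *Ccr9*, a chemokine receptor gene, at 1.16. No immediate early gene of 21 was called. Among 15 ILC2 genes that the rule did not use 0 were called, and their median was 0.30 beside 0.02 for all genes.

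A few genes of DNA replication were also higher. Of 17 cell cycle genes 5 had enough UMIs and 3 were higher in dura mater D3, *Mcm5*, *Mcm3* (1.26) and *Pcna* (1.20), with a median of 1.20, or 1.06 without the mixed cells. The 5 log2 ratios ran from -0.61 to 2.60. With the T cell receptor genes also at 0 *Pcna* was at -0.41, on 7 UMIs. Among the lists of other lineages the 3 neutrophil markers that could be compared, *S100a8*, *S100a9* and *Retnlg*, were all lower, and at 0.55, 0.19 and 0.51 without the mixed cells. *Mki67*, a marker of dividing cells, had 2, 3, 0 and 3 UMIs in brain S3, dura mater S3, brain D3 and dura mater D3, so no difference in it was detectable at this depth. Of 11 heat shock genes *Hsph1* was higher (1.51) and *Hspa1a* and *Hspa1b* were lower (-3.43 and -1.99). The *Hspa1a* call turned to 1.44 without the mixed cells, since 87 of its 135 UMIs of dura mater S3 were in 1 of them. Of 18 glycolysis and hypoxia genes 1, the glucose transporter gene *Slc2a3*, was lower (-1.32), and of 12 interferon-stimulated genes 2 were lower, *Ifi47* (-1.01) and *Ifi27l2a* (-1.56), and the latter was at 0.39 without the mixed cells.

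In the brain 18 members at D3 were set against 52 at S3. Of 2276 genes 110 were higher (4.83%) and 81 lower (3.56%), 8.39% in all, and without the 1 mixed cell of brain D3 61 were higher and 64 lower of 2154. The higher genes were led by those of phagocytes. *Ifitm3*, an interferon-induced membrane protein gene, had 117 UMIs at D3 and 11 at S3 (5.05, and 3.41 without the mixed cell), *Ctss*, a lysosomal protease gene, 58 and 18 (3.32, and 2.14), *Ctsb*, another, 60 and 40 (2.22, and 2.40), and *Apoe*, which encodes apolipoprotein E, 75 and 52 (2.16, and 2.41). The same genes were higher in other lymphocytes of that library. *Apoe* stood at 430 CPM in T cells of brain S3 and 9819 in those of brain D3, at 305 and 2637 in NK/ILC1 cells, and at 1002 and 4858 in B cells, and *Ctsb* in T cells at 162 and 1633. ILC2 of brain D3 were below them, at 584 CPM of *Apoe* and 467 CPM of *Ctsb*, and the part of free RNA of the library in these levels was not tested. *Vim*, an intermediate filament gene, and *Crip1*, a small zinc finger gene, were higher at 2.13 and 1.93, and *Cst3*, *Syngr2* and *Gdi2* dropped to 0.53, 0.50 and 0.54 without the mixed cell.

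The heat shock genes headed the lower genes of the injured brain. *Hspa1a* had 298 UMIs in 27 of 52 members at S3 and 3 in 2 of 18 at D3, a log2 ratio of -4.999 (-7.29 to -3.44), and -4.72 without the mixed cell. *Hspa1b* had 160 and 4 UMIs (-3.69) and *Dnajb1*, their cochaperone, was at -1.52. Of 10 heat shock genes 3 were lower and 0 higher. In T cells *Hspa1a* was at 1342 CPM in brain S3 and 803 in brain D3, in NK/ILC1 cells at 1103 and 519 and in B cells at 2196 and 1735, so those cells were also lower at D3. *Commd3*, *Gadd45g*, *Padi2* and *Rnf213* had 35, 34, 33 and 31 UMIs at S3 and 1 each at D3. Of the effector genes, *Il13* (0.01), *Areg* (-0.38, -0.72 to -0.05), *Csf2* (0.57) and *Calca* were not called, while *Ccl5*, a chemokine gene, was higher and *Il10* lower. *Ccl5* had 22 UMIs at D3 and 10 at S3 (2.77, 1.63 to 4.01, and 3.05 without the mixed cell), 19 of the 22 in 1 cell, and *Il10* had 0 and 39 UMIs, all 39 in 1 cell. *Nkg7*, a granule gene of NK cells and the one gene of the NK list that could be compared, moved with *Ccl5*, with 31 UMIs in 2 members at D3 and 2 UMIs at S3 (5.59, 3.61 to 8.70, and 5.87 without the mixed cell), and its part in the *Ccl5* value was not tested. Among receptor genes *Il17rb*, a chain of the interleukin 25 receptor, was higher (1.24) and *Ramp1* and *Ptgir*, receptors for CGRP and prostacyclin, were lower (-1.34 and -1.26). With 128534 UMIs in brain D3, a smaller difference was not detectable for most genes.

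Between the tissues at S3, dural ILC2 were called higher for 176 of 3716 genes (4.74%) and lower for 68 (1.83%), 6.57% in all. The highest were genes of neutrophils. *S100a8* had 1030 UMIs in the dura mater and 27 in the brain, a log2 ratio of 4.89 that was 1.05 without the mixed cells, and *Retnlg* 395 and 6 (5.68, and 0.77 without). *Ngp* and *Camp*, genes of neutrophil granule proteins, were spread over 26 and 28 members and kept 3.94 and 3.27 without the mixed cells. *S100a8* was at 594 CPM in T cells of brain S3 and 8044 in those of dura mater S3, at 4961 and 13283 in B cells and at 3532 and 134 in NK/ILC1 cells, against 67.6 and 2008 in ILC2. The level of *S100a8* was thus higher in the dura mater than in the brain in T and B cells too, but lower in NK/ILC1 cells. Its source in ILC2 was not tested. Among genes of the lists, *Ccl1* (1.14), the chemokine gene *Cxcl2* (1.22), the transcription factor gene *Maf* (1.12) and *Pdcd1*, the receptor PD-1, (1.14) were higher in the dura mater, and *Lif*, a cytokine of the interleukin 6 family, was lower (-1.55), as was *Il10* through the 1 cell of brain S3. The cytokine receptor list had 0 calls of 19 and the ILC2 genes that the rule did not use 0 of 14, with medians of 0.17 and 0.09 beside 0.06 for all genes. Lower in the dura mater at S3 were also *Txk*, a Tec family kinase gene (-2.45), *Dnajb1* (-2.36) and *Gimap9* (-1.91).

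At D3 the dural cells were higher for 160 of 3643 genes (4.39%) and lower for 133 (3.65%), 8.04% in all, and 108 were higher and 74 lower of 3452 without the mixed cells. Of the effector list 6 of 14 genes were higher and 1 lower. Among the higher genes *Il5*, *Il13* and *Areg* counted toward the rule, so this count is not independent of how the cells were chosen. *Il5* had 127 UMIs to 0, with 67 of the 127 in 1 cell, and was 7.37-fold higher with the 0 set to the floor of 3 UMIs. *Il13* was higher by a log2 ratio of 2.71, *Il4* by 2.15 (0.22 to 5.23, 51 UMIs to 2), *Areg* by 1.36 and *Ccl1* by 1.31, whereas *Cxcl3* was the gene of 1 cell. *Lif* was again lower in the dura mater (-1.15, -1.85 to -0.41). *Csf2* (-0.08, -0.46 to 0.32) and *Calca* (0.61, 0.34 to 0.89) were not called. *Hlf*, a transcription factor gene known from ILC2, was higher at 1.30, *Tox*, another lymphoid factor gene, at 1.35, *Il10ra*, the interleukin 10 receptor, at 1.52 and *Ly6a* at 1.18. *Stab2*, a scavenger receptor gene, had 70 UMIs in 32 dural members and 1 UMI in the brain (3.61, 1.08 to 8.93), and *Plxdc2* 59 and 1 (3.36, 0.83 to 8.69). Of the immediate early genes 4 of 21 were higher, *Egr1* (2.77), *Fosb* (1.33), *Ier3* and *Nr4a3* (1.01), and *Dusp2*, a phosphatase gene of the same response, was lower (-1.59). Lower in the dura mater were also the glycolysis gene *Hk2* (-1.66), the integrin gene *Itgb1* (-1.44), and *Ifitm3* (-2.89), *Ctss* (-2.83), *Ctsb* (-1.97) and *Vim* (-1.42). *Nkg7* was at 0 UMIs in the dura mater against the 31 of brain D3. T cells of brain D3 carried *Ifitm3* at 662, *Ctss* at 982 and *Ctsb* at 1633 CPM. The S3 and D3 tissue ratios do not share a library, but each shares its libraries with the injury ratios.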

How the data were processed

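CD45+ cells of 4 libraries were analysed, 1 for each condition. The authors demultiplexed with Cell Ranger 3.1.0, mapped reads to mm10 and built matrices in Seurat 3.1.0, as the paper's methods and the submitters' processing notes name them. What the authors deposited is, for each gene and cell, a natural log: UMIs were scaled to 10000 a cell, 1 was added and the log taken. Each file lists 17485 to 17862 genes, all of them with a UMI in 3 or more of its cells. The inverse of the log summed to 10000 in each of 18969 cells and was a whole multiple of the smallest value within 1e-06, so UMIs were recovered taking the lowest value in each cell to stand for 1 UMI. An unlisted gene was taken as 0 UMIs. Controls, named CT in the labels, were taken as sham S3.

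Members were found by the rule given in the report. Alpha-beta T, NK/ILC1, B and mast cells were gated from their own markers among the same filtered cells. Filtered cells numbered 3569 and 2668 in dura mater S3 and D3 and 3748 and 4601 in brain S3 and D3. UMIs were summed over members, levels were given exact Poisson intervals and shares Clopper-Pearson intervals, and log2 ratios of CPM the exact conditional interval of a ratio of Poisson counts, all at 95% and for counting error only, since members of 1 library are not replicates. A gene was called at a ratio of at least 2-fold with an interval off 0 and at least 30 UMIs in both groups together. A group at 0 UMIs was set to a floor of 3. Named genes were those of the rule, the genes of the lists, and for each of the 4 ratios up to 10 called genes a direction with the largest ratio and UMIs in at least 10 cells of the higher group, and up to 15 higher against T and NK/ILC1 cells, without rule, mitochondrial, ribosomal, Gm and Rik genes. The members and lists were chosen with earlier results of these data known.

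Doublets were kept in, because the automatic threshold of Scrublet (scanpy 1.11.5) marked 0.0284% to 0.167% of a library. An alternative removed the highest scores at 0.8% for each 1000 barcodes, between 99 and 281 cells a library. Other alternatives were a rule of at least 3 marker genes, a rule without the cytokine genes, a rule with Cd3d, Trac, Trbc1 and Trbc2 at 0, no filter on cells, members thinned to 2000 UMIs, the mean of cells, other UMI minimums and the highest cell of each gene left out. Leaving out mixed cells was chosen after the data were seen. Simulated sums were drawn as Poisson counts around the members' pooled levels, the model of the intervals themselves, without spread between cells. On them the intervals held the true ratio for 96.3% of 4727 genes in the dura mater and 96.3% of 2300 in the brain. Simulated 4-fold changes were called for 97.4% and 95.7% of changed genes, and 2-fold changes for 56.2% and 50.6%. Because the model was shared, this coverage was set in advance. It does not show how the intervals hold for counts that gather in a few cells, such as those of *Il5*. Gene positions are from GENCODE on GRCm38 and promoter sequences from RefSeq on GRCm38.p6, with all 5 promoters sought found by symbol. Scripts ran under Python 3.11.15 with pandas 2.3.3, scipy 1.17.1, numpy 2.4.6 and, for the plots, matplotlib 3.10.9.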

Additional observations from a re-analysis of the deposited data

Results flagged for a closer look

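Of 2265 genes with at least 30 UMIs in both tissues, 49 were called at D3 against S3 in the dura mater and 182 in the brain. In both tissues 15 were called in the same direction and 9 in opposite directions. These 9 are given because the direction differed between the tissues, and the difference itself was not tested. *Commd3* had a log2 ratio of 1.85 in the dura mater, from 10 UMIs at S3 to 52 at D3, and -3.49 in the brain, from 35 UMIs to 1, and kept 2.08 and -3.21 without the mixed cells. *Rasl11a* was at 1.52 in the dura mater and at -2.37 in the brain, the latter with the 0 UMIs of brain D3 set to the floor of 3, and at 1.32 and -2.08 without the mixed cells. The other 7 were lower in the dura mater and higher in the brain. *Anxa2* was at -1.38 and 4.01 (-0.38 and 3.30 without the mixed cells), and *Prdx5* at -1.20 and 1.26 (-0.40 and 0.30). *Lgals3* was at -1.82 and 3.91, *Lyz2* at -3.23 and 1.40, *Prkcd* at -1.003 and 1.19, *Spi1* at -1.14 and 3.78 and *Tyrobp* at -1.39 and 2.45, and without the mixed cells the dural values of these were 0.49, 0.35, 0.56, 1.44 and 0.32.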

How the results depend on the processing

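No paired analysis was possible because each condition has 1 library and no result comes from a test, and for the same reason no replicate could be left out. Of 1757 gene values under the alternatives that can change a ratio, which leaves out the UMI minimums, 1435 stayed within the counting interval of the value reported, 292 moved outside it and 30 changed sign. With *Cd3d*, *Trac*, *Trbc1* and *Trbc2* also at 0, which leaves 25 cells, 61 of 149 gene values stayed within that interval. The shares were then 0.224% and 0.337% in dura mater S3 and D3 and 0.0800% and 0.109% in brain S3 and D3. The brain share was thus no longer lower at D3, on too few cells for a direction to be read. Called genes numbered 84 for D3 over S3 in the dura mater, 83 in the brain, 109 for dura mater over brain at S3 and 98 at D3, against 212, 191, 244 and 293 with all members. In the same order the counts were 51, 38, 52 and 68 with members thinned to 2000 UMIs, 35, 46, 42 and 97 with at least 100 UMIs a gene, and 454, 450, 563 and 459 with no minimum. With at least 3 marker genes the brain D3 to S3 count was 105 and the tissue count at D3 175, and without the mixed cells they were 125 and 182. Log2 ratios of D3 over S3 that reversed in the dura mater were *Cd74* (-0.91), *H2-Aa* (-0.15), *H2-Ab1* (-0.0826) and *H2-Eb1* (-0.31) with at least 3 marker genes, *Cd74* (-0.21) without its highest cell, *Chil3* (0.15), *Hspa1a* (1.44), *Ifi27l2a* (0.39), *Lyz2* (0.35) and *Retnlg* (0.51) without the mixed cells, *Ifi27l2a* (0.27) without the Scrublet doublets, and *Pcna* (-0.41) with the T cell receptor genes at 0. In the brain *Pfkp* reversed with at least 3 marker genes (-0.14), without the mixed cells (-0.18) and without its highest cell (-0.0658), and *Cd48* (-0.45) and *Dnajb1* (2.45) with the T cell receptor genes at 0. For dura mater over brain at S3, *Ier3* and *Ifitm2* reversed with the T cell receptor genes at 0 (-2.55 and -1.03), without the Scrublet doublets (-0.61 and -0.11) and without the mixed cells (-0.88 and -1.52), *Ifitm3* (-0.56) without the mixed cells, *Atf3* (1.87) and *Lif* (1.19) with the T cell receptor genes at 0, and *Irf1* (-0.61) when thinned. At D3 *Ifitm2* (0.67) reversed with at least 3 marker genes, *Dusp2* (0.91) with the T cell receptor genes at 0 and *Cxcl3* (-0.0473) when thinned. The cause of these reversals was not tested. Alternatives that left both groups of a gene at or under the floor of 3 UMIs give no value.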

Other observations

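In dura mater D3 *Il22*, a cytokine known from group 3 innate lymphoid cells, had 14 UMIs, all of them in 1 member, and it had 0 UMIs in the members of the other libraries.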
